A study of Bos taurus with 6 samples.

Results

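The genes described here are 9 transcription factors that mark positions along the head-to-tail axis of the early neural tube: PAX2, PAX8, EN1, EN2, GBX2, EMX2, IRX1, IRX2 and IRX3. They were taken by name, by symbol in the deposited TPM table and by Entrez identifier in the deposited count table, and all 9 were found in both tables, among 19163 genes with counts. Bulk RNA-seq was done on F7, a single line of bovine embryonic stem cells (bESCs) from in vitro fertilized Holstein Friesian embryos. MC-F7 (written 1M in the labels) was kept on C57 mouse embryonic fibroblasts that mitomycin C had stopped from dividing, and MT-F7 was kept on such fibroblasts killed by fixation in methanol. Each group had 3 libraries, and the deposited design gives 15 passages for both. All cells were kept in a growth factor-free basal medium with added fibroblast growth factor (FGF) and IWR1, an inhibitor of Wnt signaling, and dissociated cells were placed on gelatin so that attaching cells could be left behind. The medium was changed every day for MC-F7 and every other day for MT-F7, so the feeder and the feeding schedule cannot be told apart. No source says that libraries of a group were separate cultures, and p values then measure only the spread between these libraries, which may be technical.

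The early neural plate is divided along the rostrocaudal axis by transcription factors that switch on in bands. Signals such as Wnt, FGF and retinoic acid push cells toward caudal fates, while their absence leaves rostral fates. EMX2 belongs to the dorsal forebrain. OTX2 in the forebrain and midbrain and GBX2 in the anterior hindbrain repress each other, and the midbrain-hindbrain organizer forms where they meet, with FGF8, WNT1, EN1, EN2, PAX2, PAX5 and PAX8. The Iroquois genes IRX1, IRX2 and IRX3 are used more broadly, from the caudal forebrain backward. Several of the genes also act outside the nervous system: PAX2 and PAX8 are also kidney and ear genes, PAX8 is a thyroid gene, and GBX2 is expressed in mouse embryonic stem cells.

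Libraries held between 21958386 and 24933430 counts, so that 3 counts, the smallest amount taken as detected, were 0.12 to 0.137 counts per 1000000 counts (CPM). Intervals and limits of this kind cover counting error only. Genes of the mitochondrial genome took 16.3% to 28.3% of the counts in MC-F7 and up to 27.9% in MT-F7, and in both groups replicate 3 had the largest share. The paper reports that fewer reads of MC-F7 than of MT-F7 aligned to the bovine genome. It proposes that fixed feeders left less feeder cell contamination. The part of mouse reads in the values given here was not tested. As a check of the cell type, POU5F1, NANOG, LIN28A, SALL4, TDGF1, DPPA4 and DNMT3B, markers of pluripotent cells, were all detected, and their summed level was 1354 to 2028 CPM in MC-F7 and 740.3 to 856.1 CPM in MT-F7. Of these 7 genes 6 were lower in MT-F7 by the test used for all genes here, and SALL4 did not pass. LIN28A was above the threshold without replicate 2 of MC-F7 or replicate 1 or 2 of MT-F7 (edgeR adjusted p = 0.065, 0.093 and 0.087). SOX2 is not analysed here.

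EN1 and EN2, the engrailed genes of the midbrain and anterior hindbrain, were at or near the detection floor in both groups. EN1 (Entrez gene 529707) gave 6, 0 and 0 counts in MC-F7, against 0, 4 and 2 in MT-F7. EN2 (100337304) gave 0, 1 and 5 counts in MC-F7, against 0, 8 and 0 in MT-F7. Only 2 of the 6 libraries exceeded 3 counts for either gene, and neither had enough counts to be tested. PAX5, the paired box partner of PAX2 and PAX8 at the organizer, had 0 counts in every library, which allows up to 3 counts in each. For the engrailed genes a difference between MC-F7 and MT-F7 was therefore not detectable at this depth.

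The remaining 7 factors were detected in all 6 libraries and were tested with edgeR's quasi-likelihood test over 13001 genes. GBX2 passed the count filter for this test only through MC-F7, where it was high, which bears on its place among the calls. PAX2 and EMX2 rose in MT-F7, GBX2 fell, and PAX8, IRX1, IRX2 and IRX3 did not pass an adjusted p of 0.05. These 3 of 7 compare with 23.2% of all tested genes called in either direction, 11.9% higher and 11.3% lower. The median log2 fold change of the 7 was 0.080, against -0.0026 over all tested genes, with a range from -2.22 to 2.72. In the same 3 genes the groups did not overlap, which held for 40.0% of all tested genes, with MT-F7 higher in 19.9% and lower in 20.1%. In bulk libraries a larger share of cells with a transcript and more of it per cell cannot be told apart.

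**Figure D1:**
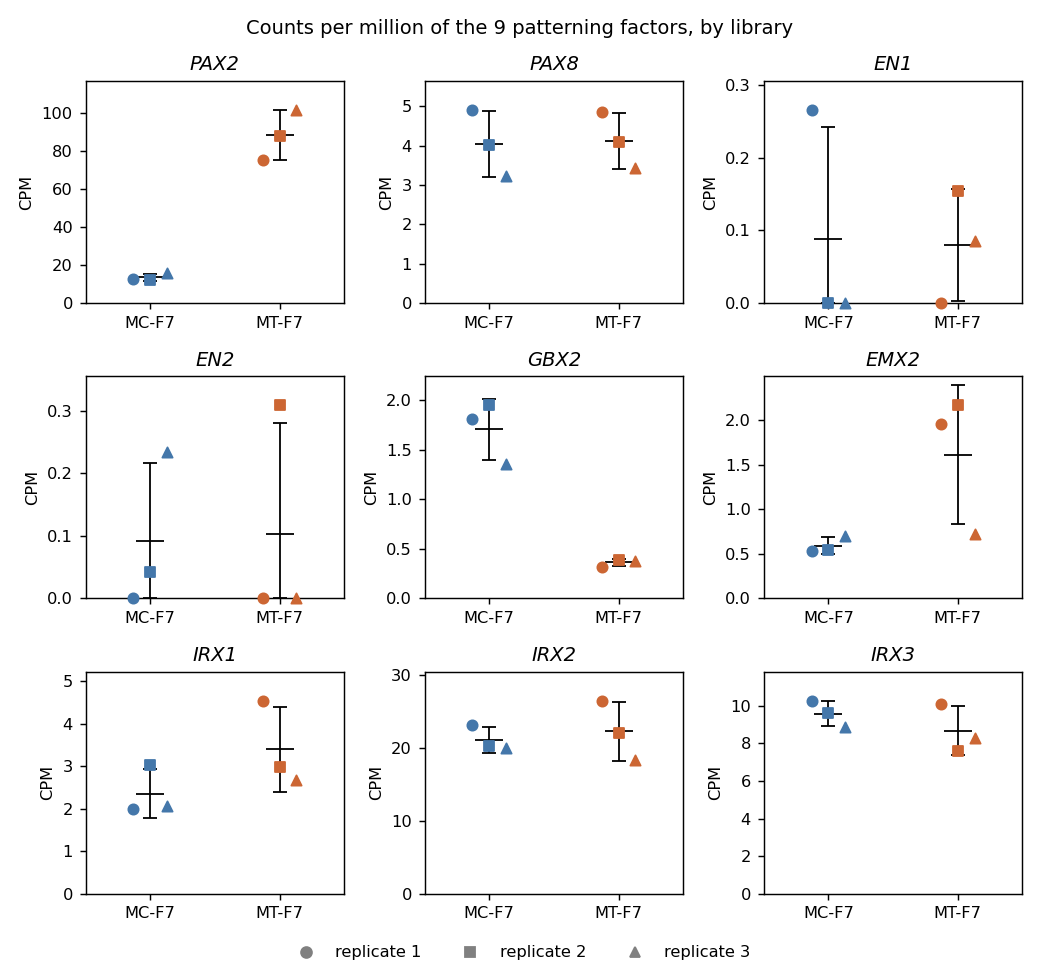
Counts per 1000000 (CPM) of the 9 patterning factors, in a panel each with its own scale from 0; symbols are the 3 libraries of MC-F7 (blue) and MT-F7 (orange), and black bars are the mean and SD, cut at 0. PAX2 lies between 12.2 and 15.6 CPM in MC-F7 and between 75.5 and 101.7 CPM in MT-F7, GBX2 lies lower in every MT-F7 library, and EMX2 replicate 3 of MT-F7 lies close to the MC-F7 libraries.

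PAX2 (Entrez gene 100297382), a paired box factor that is among the first genes of the midbrain-hindbrain organizer, gave 283, 295 and 334 counts in the MC-F7 libraries, against 1895, 2283 and 2395 in MT-F7. Every MT-F7 library lay far above every MC-F7 library, and the libraries within a group differed little. Its level rose from 13.5 ± 1.88 to 88.5 ± 13.1 CPM (SD, n = 3), which is 6.57-fold with a 95% confidence interval from 5.03 to 8.59. The log2 fold change was 2.72 (standard error 0.178, edgeR adjusted p = 7.9e-07), and 24 of the 13001 tested genes had a smaller p. In the RefSeq assembly ARS-UCD2.0 its coding neighbours are HIF1AN and SLF2, and their log2 fold changes were 0.29 and 0.076 (edgeR adjusted p = 0.41 and 0.83).

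PAX8 (534661), its close relative, gave 111, 97 and 69 counts in the MC-F7 libraries, against 122, 106 and 81 in MT-F7. The groups overlapped, and in both groups replicate 1 was highest and replicate 3 lowest. The log2 fold change was 0.028 (standard error 0.255, edgeR adjusted p = 0.95), with a 95% confidence interval from 0.695-fold to 1.49-fold. Within a library, the ratio of PAX2 to PAX8 counts was 2.54, 3.03 and 4.81 for MC-F7, against 15.5, 21.4 and 29.4 for MT-F7. All 3 ratios were higher in MT-F7, and the two-sided exact permutation test gave p = 0.1, the smallest that 3 against 3 libraries can give (adjusted p = 0.4 over 4 pairs of relatives).

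Markers of other tissues that use PAX2 or PAX8 were set beside these values. Of 8 markers of intermediate mesoderm and kidney 4 could be tested, and the kidney cadherin CDH16 was at 0 in every library. SALL1 and EYA1 were higher in MT-F7. SIX2 was higher and LHX1 lower, with calls that were lost when single libraries were left out. The edgeR adjusted p of SIX2 was 0.029, and 0.020 to 0.098 over the 6 fits that each dropped a library, above the threshold without replicate 2 or 3 of MC-F7 or replicate 1 or 2 of MT-F7. The edgeR adjusted p of LHX1 was 0.042, and in those 6 fits it was 0.060 to 0.12. The summed level of the 8 was 23.9 to 39.9 CPM in MC-F7 and 69.5 to 87.2 CPM in MT-F7. Most of that sum was SALL1, with a mean of 22.7 CPM in MC-F7 and 49.2 CPM in MT-F7, and EYA1. The mean of EYA1, which is also in the list of ear and placode markers, was 6.64 CPM in MC-F7 and 24.3 CPM in MT-F7. OSR1 went the other way, with 7, 5 and 22 counts in MC-F7, against 5, 2 and 1 in MT-F7, and was not tested. GATA3 had at most 7 counts in any library and was not tested either. WT1, a defining gene of the kidney lineage, had 0 counts in every library but MT-F7 replicate 1, which had 4. Of 6 markers of the ear and placodes, 3 could be tested and EYA1 and DLX5 were higher. DLX5 went from 2.97 ± 0.419 to 47.8 ± 11.8 CPM (edgeR adjusted p = 5.9e-07), FOXI1 was at 0 in every library, and the sum of the 6 was 9.41 to 12.1 CPM in MC-F7 and 61.2 to 91.0 CPM in MT-F7. TSHR, the thyrotropin receptor gene and a thyroid marker, had at most 2 counts in any library. The part of such cells in the PAX2 values was not tested.

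GBX2 (507344), a homeobox factor of the anterior hindbrain, gave 41, 47 and 29 counts in the MC-F7 libraries, against 8, 10 and 9 in MT-F7. It was low everywhere, and each MT-F7 library had fewer counts than any MC-F7 library. It passed the count filter only with MC-F7 libraries. Its level fell from 1.71 ± 0.310 to 0.362 ± 0.0379 CPM (SD, n = 3), 4.66-fold lower with a 95% confidence interval from 2.51 to 8.67. The log2 fold change was -2.22 (standard error 0.413, edgeR adjusted p = 0.0020). The call held with any single library removed (edgeR adjusted p at most 0.014). Its neighbour AGAP1 had a log2 fold change of 0.31 (edgeR adjusted p = 0.25), and ASB18 on the other side had too few counts to be tested. OTX2, the factor that GBX2 opposes at the organizer, had a mean of 123.7 CPM in MC-F7 and 148.6 CPM in MT-F7. The groups overlapped for OTX2, and its log2 fold change of 0.26 did not pass (edgeR adjusted p = 0.29). The paper lists OTX2 among markers that were higher in MT-F7.

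EMX2 (523601), a homeobox factor of the dorsal forebrain, gave 12, 13 and 15 counts in the MC-F7 libraries, against 49, 56 and 17 in MT-F7. Replicates 1 and 2 of MT-F7 stood well above MC-F7, while replicate 3, the MT-F7 library with the largest mitochondrial share, was only just above it. The level rose from 0.590 ± 0.0963 to 1.61 ± 0.778 CPM (SD, n = 3), 2.73-fold with a 95% confidence interval from 1.35 to 5.54. The log2 fold change was 1.45 (standard error 0.471, edgeR adjusted p = 0.041), close to the threshold. With a single library removed it passed only without MT-F7 replicate 3 (edgeR adjusted p = 0.011). Without MC-F7 replicate 1, 2 or 3 the adjusted p was 0.095, 0.13 and 0.054, and without MT-F7 replicate 1 or 2 it was 0.14 and 0.16. Without both libraries numbered 3 it was 0.0056, a choice made after seeing the data. The neighbours PDZD8 and RAB11FIP2 had log2 fold changes of 0.22 and -0.024 (edgeR adjusted p = 0.54 and 0.96).

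**Figure D2:**
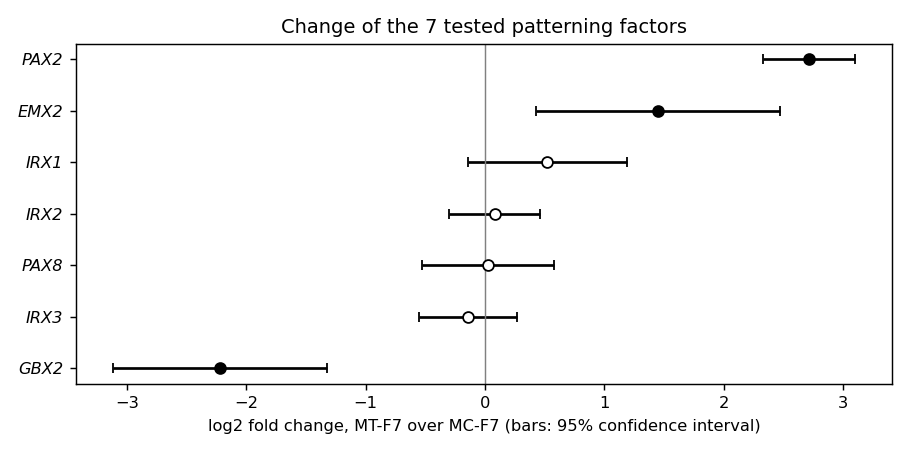
Log2 fold change of the 7 tested patterning factors, MT-F7 over MC-F7, with 95% confidence intervals; filled circles have an adjusted p under 0.05 and open circles do not. PAX2 is at 2.72, EMX2 at 1.45 with a wide interval, and GBX2 at -2.22, while the intervals of PAX8, IRX1, IRX2 and IRX3 include 0.

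The Iroquois genes code for homeobox factors that pattern the neural tube, the heart and the limb. IRX2 (100337321) gave 521, 487 and 426 counts in the MC-F7 libraries, against 663, 569 and 432 in MT-F7. IRX3 (540417) gave 232, 232 and 190 counts in the MC-F7 libraries, against 254, 197 and 195 in MT-F7. In both genes the groups overlapped and the spread within MT-F7 was wider than the difference between the group means. Relative to MC-F7, IRX2 in MT-F7 was 1.06-fold (95% confidence interval 0.813 to 1.37, edgeR adjusted p = 0.78) and IRX3 was 0.904-fold (0.680 to 1.20, edgeR adjusted p = 0.62).

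IRX1 (783235) gave 45, 73 and 44 counts in the MC-F7 libraries, against 114, 77 and 63 in MT-F7. Replicate 1 of MT-F7 was the highest library, and after normalization replicate 2 of MC-F7, at 3.03 CPM, lay above 2 of the MT-F7 libraries. Its log2 fold change was 0.52 (standard error 0.307, edgeR adjusted p = 0.25), and the 95% confidence interval from 0.907-fold to 2.28-fold does not exclude a doubling. IRX1 counts were 0.0872 to 0.151 of IRX2 counts in MC-F7 and 0.136 to 0.173 in MT-F7, with no difference past the exact permutation test (p = 0.3, adjusted p = 0.4). The ratio of IRX3 to IRX2 was 0.446 to 0.477 in MC-F7 and 0.347 to 0.452 in MT-F7 (exact permutation p = 0.3, adjusted p = 0.4). The fourth pair of relatives, EN1 and EN2, rested on counts near the floor (exact permutation p = 0.7, adjusted p = 0.7). In the RefSeq annotation IRX2 overlaps the coding gene LOC100139061, which has no row in the count table, and the library kit is not named as one that keeps strand, so reads of overlapping genes cannot be told apart there.

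Beside IRX3 in the genome lies IRX5, an Iroquois gene with partly shared roles. IRX5 (532896) rose from 33.1 ± 2.38 to 52.8 ± 8.55 CPM. Its log2 fold change was 0.67 (standard error 0.164, edgeR adjusted p = 0.0098). It lost the threshold without MC-F7 replicate 2 (adjusted p = 0.067) and without MT-F7 replicate 1 (adjusted p = 0.065). The ratio of IRX5 to IRX3 counts was 3.19 to 3.74 in the MC-F7 libraries and 5.23 to 7.26 in the MT-F7 libraries. This pair was chosen after its values were seen and was not tested. IRX4 and IRX6, the other Iroquois genes, had at most 3 counts in any library.

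To compare levels between the factors, the deposited TPM values, a unit scaled by gene length, were used. For each of the 9 factors the ratio of TPM to counts was the same in all libraries, so these values were not scaled for library size. In MC-F7, IRX2 had the highest level, 1.94 to 2.38 TPM, and every other factor was below 1 TPM. IRX3 followed, and below it PAX2 (0.564 to 0.666 TPM) and PAX8 (0.431 to 0.694 TPM) overlapped. GBX2, IRX1 and EMX2 came next, each above the next in all libraries, and EN2 and EN1 were last and overlapped. In MT-F7, PAX2 came first at 3.78 to 4.77 TPM, above IRX2 at 1.97 to 3.02 TPM in all libraries. IRX3 and PAX8 overlapped at the next places, then IRX1 with EMX2, EMX2 with GBX2, and the engrailed genes overlapped their neighbours.

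By mean TPM, PAX2 went from the third place, where it overlapped PAX8, to the first. GBX2 went from the fifth place to the seventh, where it overlapped both neighbours. By CPM, which is not divided by length, PAX2 was second and GBX2 sixth in MC-F7. In MT-F7 both had the same places by CPM as by TPM, PAX2 the first and GBX2 the seventh. PAX2 took 11.1% to 15.7% of the summed TPM of the 9 factors in MC-F7 and 41.6% to 57.5% in MT-F7. IRX2 took 44.9% to 46.9% in MC-F7 and 23.7% to 33.3% in MT-F7, although its own level did not pass the test. Among genes with a TPM above 0, the mean of PAX2 stood at percentile 48.2 in MC-F7 and 79.6 in MT-F7. GBX2 stood at percentile 40.2 in MC-F7 and 22.8 in MT-F7, and EMX2 at 20.4 and 30.8.

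**Figure D3:**
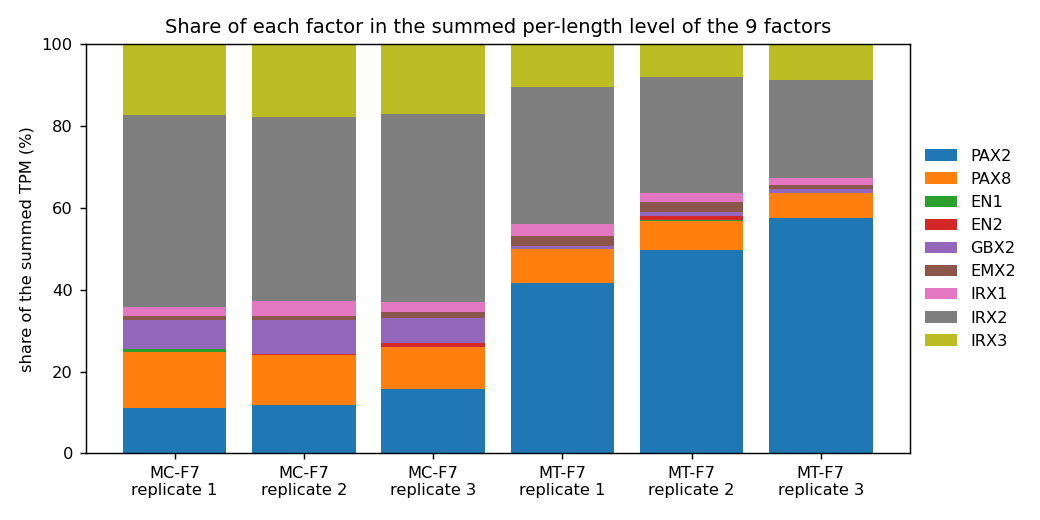
Share of each patterning factor in the summed deposited TPM of the 9 factors, as a percentage, for each of the 6 libraries. The share of PAX2 is 11.1% to 15.7% in MC-F7 and 41.6% to 57.5% in MT-F7, and the shares of EN1 and EN2 are at most 1.10% in any library.

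The partners of the 9 factors were examined in lists by position. Of 15 other forebrain and midbrain factors, 11 could be tested with counts, and 7 of them were higher in MT-F7 and none lower by edgeR's quasi-likelihood test at an adjusted p of 0.05. At an unadjusted p under 0.05, and by DESeq2, no tested gene of this list was lower either. Their median log2 fold change was 1.64. BARHL1, OTX1 and NKX2-1 passed the count filter only with MT-F7 libraries, and of these only BARHL1 was called. Of the 7, FEZF2 was close to the threshold (edgeR adjusted p = 0.031), and it did not pass without replicate 1 or 2 of MC-F7 or replicate 2 or 3 of MT-F7 (0.071, 0.15, 0.11 and 0.058). LHX2, a LIM homeobox factor of the forebrain and eye field, rose from 34.6 ± 3.15 to 324 ± 52.2 CPM (log2 fold change 3.23, edgeR adjusted p = 5.7e-07). FEZF1, a zinc finger factor of the rostral forebrain, rose from 33.9 ± 3.64 to 209.8 ± 17.96 CPM (edgeR adjusted p = 6.5e-07). BARHL1, a homeobox factor of the diencephalon and midbrain, rose from 0.568 ± 0.277 to 3.54 ± 0.378 CPM (edgeR adjusted p = 4.0e-04). EMX1, the paralogue of EMX2, gave 31, 40 and 66 counts in the MC-F7 libraries, against 84, 57 and 109 in MT-F7, with overlap (log2 fold change 0.74, edgeR adjusted p = 0.18).

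Of 15 genes of the midbrain-hindbrain organizer and its FGF signal, 12 could be tested. FGF8, IL17RD, LMX1B and SPRY1 were higher in MT-F7, and CNPY1 and FGF17 were lower. The median log2 fold change was 0.080. IL17RD and LMX1B passed the count filter only with MT-F7 libraries, and CNPY1 and FGF17 only with MC-F7 libraries, where each was higher. FGF8, the ligand that gives the organizer its activity, rose from 3.22 ± 1.71 to 22.7 ± 2.86 CPM (log2 fold change 2.81, edgeR adjusted p = 2.8e-05). IL17RD, a feedback inhibitor of FGF signaling, rose from 0.235 ± 0.0657 to 2.15 ± 1.11 CPM (edgeR adjusted p = 7.7e-04). FGF17, a ligand close to FGF8 that was named after its values were seen, went the other way, from 1.04 ± 0.0807 to 0.350 ± 0.130 CPM (log2 fold change -1.57, edgeR adjusted p = 0.029). With a single library removed it passed only without MT-F7 replicate 3, with an edgeR adjusted p of 0.048 to 0.12. CNPY1, the coding neighbour of EN2, fell from 3.38 ± 0.968 to 0.529 ± 0.261 CPM (log2 fold change -2.65, edgeR adjusted p = 5.3e-04). WNT1, the other organizer ligand, gave 3, 5 and 0 counts in the MC-F7 libraries, against 11, 20 and 3 in MT-F7, too few to be tested.

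Of 17 hindbrain genes only 6 could be tested. Of these, 4 were higher in MT-F7, among them FGF3, CYP26A1 and CYP26C1, CYP26B1 was lower, and EGR2, which marks rhombomeres, did not pass. The median log2 fold change of the 6 was 2.11. FGF3 gave 10, 10 and 5 counts in MC-F7, against 149, 149 and 151 in MT-F7. CYP26C1 gave 18, 4 and 7 counts in MC-F7, against 65, 47 and 72 in MT-F7. Both passed the count filter only with MT-F7 libraries, and CYP26B1 only with MC-F7 libraries. The median and the count of genes called higher therefore depend in part on that filter. FGF3, a ligand of the caudal hindbrain, rose from 0.364 ± 0.113 to 6.03 ± 0.339 CPM (log2 fold change 4.02, edgeR adjusted p = 4.0e-06). CYP26A1, which breaks down retinoic acid and is expressed in the rostral neural plate, rose from 13.7 ± 2.21 to 86.1 ± 12.6 CPM (edgeR adjusted p = 1.1e-06), and CYP26C1 rose from 0.430 ± 0.327 to 2.49 ± 0.627 CPM (edgeR adjusted p = 0.0030). CYP26B1 gave 33, 33 and 41 counts in the MC-F7 libraries, against 11, 7 and 20 in MT-F7 (edgeR adjusted p = 0.024). It was above the threshold without replicate 2 or 3 of MC-F7 or replicate 1 or 2 of MT-F7 (0.055, 0.062, 0.087 and 0.097). The 7 HOX genes of the list, which give the hindbrain and neck their positions, each had 13 counts or fewer in any MC-F7 library. In any MT-F7 library each had at most 1 count, and none could be tested. Together the 7 had 5 to 20 counts in an MC-F7 library and 0 to 1 in an MT-F7 library. Whether any of these few counts came from mouse feeder reads was not tested.

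Among the remaining PAX and IRX genes 3 could be tested, and all 3 were higher in MT-F7, with IRX5 joined by PAX3 and PAX6. PAX3, with 7, 9 and 0 counts in the MC-F7 libraries, passed the count filter only with MT-F7 libraries. PAX6, of the forebrain, eye and spinal cord, rose from 2.63 ± 0.259 to 19.9 ± 0.591 CPM (log2 fold change 2.92, edgeR adjusted p = 7.7e-07), and PAX3, of the dorsal neural tube and neural crest, from 0.228 ± 0.200 to 2.88 ± 0.908 CPM (log2 fold change 3.60, edgeR adjusted p = 9.2e-04). Of the Groucho co-repressors, which several of these factors recruit, TLE4 rose from 22.2 ± 3.29 to 46.7 ± 4.20 CPM (edgeR adjusted p = 5.2e-04), and TLE2, TLE3 and TLE5 did not pass. The median of the 4 was -0.21.

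**Figure D4:**
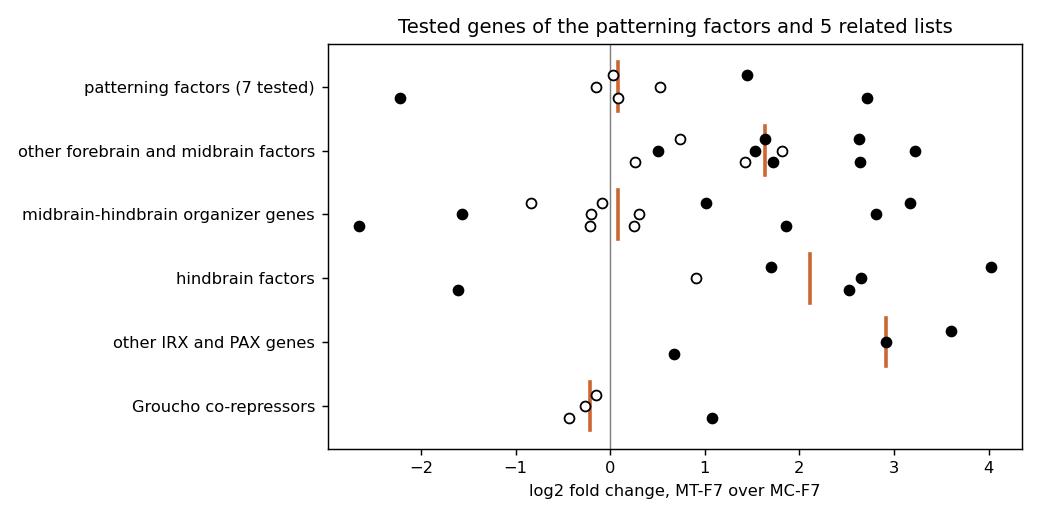
Log2 fold change, MT-F7 over MC-F7, of the tested genes among the patterning factors and 5 related lists; each circle is a gene, filled where the adjusted p is under 0.05, and the orange line is the median of the list. The median is 1.64 for 11 tested forebrain and midbrain factors, 0.080 for 12 tested organizer genes and 2.11 for 6 tested of 17 hindbrain genes. No HOX gene of the hindbrain list could be tested, and FGF3 and the CYP26 genes are among the 6. CNPY1, FGF17, CYP26B1 and GBX2 are filled on the lower side.

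Markers of neural cells and feeder-type cells were set beside these values. Of the neural progenitor markers PAX6, NES and SOX21 could be tested and only PAX6 passed by edgeR's quasi-likelihood test, with a median log2 fold change of 0.80. The summed level of the 4 markers with counts was 293.7 to 343.5 CPM in MC-F7 and 386.9 to 486.6 CPM in MT-F7, and nearly all of it was NES (288.9 to 338.6 CPM in MC-F7 and 361.6 to 463.8 CPM in MT-F7), which did not pass (edgeR adjusted p = 0.083). Of 6 neuron markers 5 could be tested, and STMN2 was higher and ELAVL3 lower. The sum of the 6 was 401.8 to 522.5 CPM in MC-F7 and 528.5 to 741.2 CPM in MT-F7, and most of it was STMN2 and TUBB3. STMN2 was at 255.8 ± 44.4 CPM in MC-F7 and 469.0 ± 102.4 CPM in MT-F7. TUBB3 was at 202.2 ± 16.7 CPM in MC-F7 and 173.7 ± 13.2 CPM in MT-F7, and did not pass (edgeR adjusted p = 0.31). DCX, a defining marker of young neurons, had 0 counts in every MC-F7 library, against 6, 4 and 6 in MT-F7. Of 12 fibroblast markers, COL3A1, COL5A2, POSTN and PDGFRB were higher in MT-F7 and the remaining 8 did not pass. POSTN lost the threshold without MT-F7 replicate 2 (edgeR adjusted p = 0.059), and PDGFRB without replicate 1 or 2 of MC-F7 or replicate 3 of MT-F7 (0.052, 0.065 and 0.058). The sum of the 12 was 261.1 to 333.8 CPM in MC-F7 and 437.4 to 473.8 CPM in MT-F7. Most of that sum was COL1A1, at 204.6 ± 31.4 CPM in MC-F7 and 268.4 ± 15.6 CPM in MT-F7, which did not pass (edgeR adjusted p = 0.094). Of 6 neural crest markers, 5 could be tested and FOXD3 alone passed, lower in MT-F7, and their sum was 11.3 to 12.8 CPM in MC-F7 and 6.24 to 7.96 CPM in MT-F7. The part of such cells in the values of PAX2, EMX2 and GBX2 was not tested.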

How the data were processed

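The authors filtered paired reads, aligned them with HISAT2 2.0.5 to a Bos taurus genome from Ensembl and deposited raw counts from featureCounts 1.5.0-p3, and a second table that they call TPM. The genome build is not given in the sources used here. Of the 19163 Entrez identifiers in the count table, 19074 matched a symbol in RefSeq (ARS-UCD2.0). The deposited TPM columns add up to between 154763 and 164394, not to 1000000, and 21357 identifiers were used, with the first line of a repeated one. In edgeR 4.0.16 (R 4.3.3), genes that passed filterByExpr at a minimum count of 10 and a total of 15 were normalized by TMM. This filter asks for as many libraries as a group has, so a gene low in a group could pass through the other group alone. A two-sided quasi-likelihood test with no block then set MT-F7 against MC-F7, with Benjamini-Hochberg adjustment over 13001 genes (limma 3.58.1 and DESeq2 1.42.0 as alternatives). CPM used TMM-scaled library sizes. Ratios within a library had 0.5 added to each count. On simulated counts of 19163 genes with 200 changed, 80% of the changes of 1 and 99% of those of 2 on the log2 scale were recovered, and 4.79% of the calls were false. The changed genes were drawn above a minimum expected count, and all genes were given the same spread (edgeR common dispersion 0.0342). These rates therefore need not hold for genes with few counts or a wider spread. The 9 genes and all lists were chosen with earlier results of these data known. All 9 were named, and from each list the 3 called genes with the largest change whose mean reached 1 CPM, and further genes were named after their values were seen. Alternatives covered normalization, tests, filters, a replicate block, and the removal of single libraries or of mitochondrial genes. No sequence was used. A few genes of the lists are not reported here.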

Additional observations from a re-analysis of the deposited data

How the results depend on the processing

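PAX2 passed in all 16 alternatives, with log2 fold changes from 1.74 to 2.83, and GBX2 in all 15 in which it was tested, from -2.38 to -0.31, and the smallest sizes came from log2(TPM + 1). EMX2 was higher in all 16 and passed in 9. With at least 10 counts required in every library, GBX2 was not tested and 0 of the 9 genes were called lower. On log2(TPM + 1) and on log2(TPM + 0.1), 1 gene was called higher, as EMX2 had an adjusted p of 0.12 and 0.10 in limma. The deposited TPM of the 9 genes was not scaled for library size. Leaving out 1 library gave 1 to 2 genes called higher, and 1914 (without MC-F7 replicate 2) to 3093 genes called over the whole table, against 3016. PAX8 turned to -0.11 without MC-F7 replicate 3 and to -0.11 without MT-F7 replicate 1, and reached 0.19 over such fits. IRX2 turned to -0.069 without MT-F7 replicate 1 and reached 0.19. With CPM in place of TPM, 4 places in the order of levels changed, those of PAX2, IRX3, GBX2 and IRX1 in MC-F7. Over the 16 alternatives 0 to 2 organizer genes and 0 to 1 hindbrain genes were called lower, and 1 to 3 neural progenitor markers were called higher. The cause of these shifts was not tested.

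Under the replicate block, 4674 genes were called, and the calls of the 9 genes did not change. Deviations of libraries with the same number correlated across genes by 0.134, 0.0445 and 0.417, and those with different numbers by -0.323 to 0.279. The largest value was between the libraries numbered 3. The numbers were not taken as pairs, but a structure shared by number was not excluded. Among genes with a few counts, such as EN1 and EN2, depth limits what can be seen: when every gene with a count was fitted, their adjusted p in edgeR was 0.97 and 0.94.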

Other observations

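The tested genes whose pattern over the 6 libraries was most like a called factor were found by the root mean square difference of mean-centred log2 CPM, over 11924 genes whose mean reached 1 CPM. For PAX2 these were IGDCC4, a cell surface receptor of the immunoglobulin family (difference 0.105), and the metalloprotease gene ADAMTS6 (0.160). IGDCC4 went from 3.98 ± 0.469 to 23.6 ± 2.23 CPM between MC-F7 and MT-F7, and ADAMTS6 from 2.81 ± 0.219 to 16.2 ± 2.73 CPM. For GBX2 they were PPP1R3B, which directs glycogen synthesis (0.146), and PFKL, a glycolytic enzyme (0.147), both lower in MT-F7. For EMX2 they were BTG2 (0.200) and PIP5K1B (0.211), both lowest of MT-F7 in replicate 3. The edgeR adjusted p was 0.062 for BTG2 and 0.035 for PIP5K1B. The measure favours genes with a like difference between the groups, so the direction of the genes found follows from how they were chosen. A small count added before the logarithm also shrinks the changes of low genes such as GBX2.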
